A study of Arabidopsis thaliana with 9 samples.

Results

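Ethylene response factors (ERFs) are plant transcription factors that share a single AP2/ERF DNA-binding domain. The results concern 10 of them, out of 32548 genes in the table: ORA59, ERF1, ERF2, ESE1, ESE3, ERF5, ERF6, ERF104, ERF4 and ERF11. The set was chosen by measured values: ESE3 stood more than 16-fold lower in the al24567 mutant than in wild type while the defensin genes that ORA59 and ERF1 control stood higher. The difference between al24567 and wild type therefore chose the set, and it is given for these genes as a description without a test. The comparison of the other mutant, ring1a1b, with wild type was not part of that rule and was tested; it shares the wild-type libraries with the first.

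RNA-seq was done on whole Arabidopsis thaliana seedlings, with 3 libraries per genotype and 9 in all. All seedlings were 11 days old and came from Murashige and Skoog plates at 22 °C with 16 h of light and 8 h of dark, and the labels name no hormone or stress treatment. Col-0 is the wild type. The al24567 line is homozygous for mutations of AL2, AL4, AL5, AL6 and AL7, which encode ALFIN-like proteins whose PHD finger binds histone H3 trimethylated at lysine 4. The ring1a1b line is homozygous for mutations of RING1A and RING1B, which encode RING finger proteins of Polycomb repressive complex 1. The labels name no allele or background of the mutants, do not say whether each mutant is a single line, and do not say whether the libraries of a genotype came from separate plantings, so p-values measure the spread between these libraries only. The libraries held 18258434 to 22435660 reads on genes. Of the mutated genes, AL2, AL4, AL6 and AL7 differed from Col-0 by -1.72 to -2.69 on the log2 scale in al24567 and AL5 by -0.06, while in ring1a1b RING1A differed by -6.22 and RING1B by -0.79.

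Ethylene is perceived by receptors that keep the kinase CTR1 active; when the hormone binds, EIN2 and the transcription factors EIN3 and EIL1 act, and these switch on ERF genes. ORA59 and ERF1 are activators at which ethylene and jasmonate signals meet. Their best known targets are plant defensin genes of the PDF1 group, among them PDF1.2a, whose promoter holds a GCC box, the element that ERF proteins bind. ERF4 and ERF11 carry an EAR motif and repress transcription from the same element. ERF5, ERF6 and ERF104 are rapid stress responders tied to the mitogen-activated kinases MPK3 and MPK6. ESE1 and ESE3 were named for their induction by ethylene and salt.

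By the subfamily names of the reference annotation, ORA59, ERF1, ERF2, ERF5, ERF6, ERF104 and ESE1 belong to subfamily B-3, ERF4 and ERF11 to B-1, and ESE3 to B-6. The genes lie on chromosomes 1, 3, 4 and 5 of TAIR10.1, ERF1 as AT3G23240, ERF2 as AT5G47220, ESE1 as AT3G23220, ERF5 as AT5G47230, ERF6 as AT4G17490, ERF104 as AT5G61600, ERF4 as AT3G15210 and ERF11 as AT1G28370. ESE3 (AT5G25190) covers positions 8706745 to 8707885 on the minus strand of chromosome 5 and has 2 exons, whereas the other members have 1. ORA59 (AT1G06160) covers positions 1882907 to 1883992 on the plus strand of chromosome 1. No member overlaps another annotated gene.

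Since ORA59 and the defensins are linked through the GCC box, the 250 bases before the annotated start were searched for GCCGCC on both strands. Of the 10 genes, 2 held it, ORA59 with the box starting 230 bases before the start and ERF11 with it 28 bases before. Of the 6 defensin genes, PDF1.2a held it 222 bases before the start and PDF1.2b held it 143 bases before. The same motif stood in 1.87% of the 27443 windows of this length over all protein-coding genes. The EIN3 motif ATGTATCT was in 0 of the 10 members and 0 of the 6 defensins, against 1.23% of all windows. At so low a share, 0 was the likely result for so few windows, and no conclusion is drawn from it. Sequence farther upstream was not searched, so a gene without a match here may still hold the motif. A match is only a match of letters. The 4 windows with a box are printed with those of ESE3 and ERF104, which held no box and had the largest difference of any member in al24567 and in ring1a1b, respectively; each is written 5′ to 3′ on the gene's strand from TAIR10.1, with the GCC box in capitals.
ORA59, chr1:1882657-1882906, plus strand: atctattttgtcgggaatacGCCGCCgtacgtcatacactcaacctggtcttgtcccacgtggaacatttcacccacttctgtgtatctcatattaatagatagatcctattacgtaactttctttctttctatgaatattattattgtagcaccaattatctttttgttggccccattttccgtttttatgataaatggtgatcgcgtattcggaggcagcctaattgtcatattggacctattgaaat
ERF11, chr1:9956981-9957230, minus strand: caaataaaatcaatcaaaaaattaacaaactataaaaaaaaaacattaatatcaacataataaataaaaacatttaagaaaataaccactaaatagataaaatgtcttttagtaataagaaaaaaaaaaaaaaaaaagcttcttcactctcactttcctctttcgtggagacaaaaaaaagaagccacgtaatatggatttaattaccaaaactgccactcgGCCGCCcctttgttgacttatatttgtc
ESE3, chr5:8707886-8708135, minus strand: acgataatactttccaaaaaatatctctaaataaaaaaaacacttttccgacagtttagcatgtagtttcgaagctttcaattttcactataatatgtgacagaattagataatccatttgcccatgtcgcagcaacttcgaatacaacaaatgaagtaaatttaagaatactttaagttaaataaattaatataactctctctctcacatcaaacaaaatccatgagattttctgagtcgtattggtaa
ERF104, chr5:24767733-24767982, minus strand: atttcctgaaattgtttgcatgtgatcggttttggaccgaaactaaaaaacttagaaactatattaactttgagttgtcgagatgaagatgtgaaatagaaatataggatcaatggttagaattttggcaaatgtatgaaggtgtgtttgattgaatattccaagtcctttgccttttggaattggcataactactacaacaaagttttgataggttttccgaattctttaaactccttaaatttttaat
PDF1.2a, chr5:17907639-17907888, minus strand: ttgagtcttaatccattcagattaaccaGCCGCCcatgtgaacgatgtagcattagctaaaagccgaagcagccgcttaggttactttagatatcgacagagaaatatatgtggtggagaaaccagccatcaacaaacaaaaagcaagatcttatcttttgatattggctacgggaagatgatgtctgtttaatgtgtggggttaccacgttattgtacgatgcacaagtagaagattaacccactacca
PDF1.2b, chr2:11088873-11089122, plus strand: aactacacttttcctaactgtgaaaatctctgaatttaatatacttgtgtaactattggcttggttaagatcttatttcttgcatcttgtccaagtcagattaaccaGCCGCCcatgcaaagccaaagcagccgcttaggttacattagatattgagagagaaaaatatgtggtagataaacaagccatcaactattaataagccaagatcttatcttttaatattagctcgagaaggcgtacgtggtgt

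ESE3 was abundant in wild type and scarce in al24567. Its adjusted read count, the read count that the authors scaled to a common library size, was 982, 741 and 904 in the Col-0 libraries, 39.1, 48.6 and 28.2 in al24567, and 331, 440 and 470 in ring1a1b. The 3 genotypes did not overlap, with ring1a1b between the others. As in all results here on RNA of whole seedlings, fewer cells of a type and less RNA per cell cannot be told apart. In al24567 the difference from Col-0 was -4.49 ± 0.17 (log2 of the adjusted count + 1, with the standard error of the limma fit, n = 3), which is 22.5-fold lower and the value that chose the set. It ranked 12 from the lowest among 23207 genes, of which 16, or 0.0689%, stood at least 16-fold lower. The next lowest member, ERF6, differed by only -0.13, so no member lay just outside the limit.

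In ring1a1b, which the rule did not use, ESE3 fell 2.12-fold (log2 -1.08 ± 0.17, limma adjusted p = 0.000202, 95% interval -1.45 to -0.72). All 3 ring1a1b libraries were lower than all 3 of Col-0, a pattern seen in 18.3% of all tested genes. From al24567 to ring1a1b the values differed by 3.41 ± 0.17, given without a test because the al24567 libraries chose the members.

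**Figure D1:**
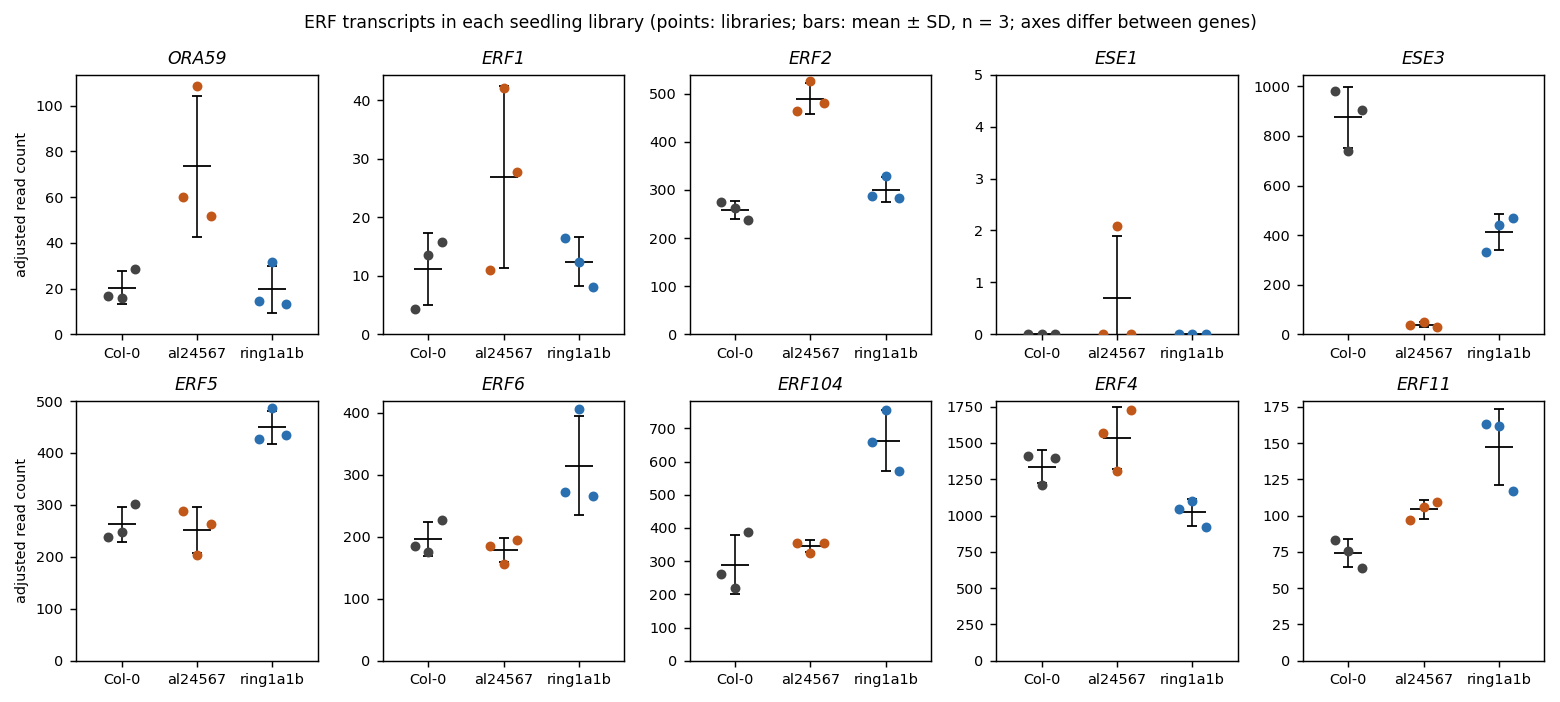
Adjusted read counts (vertical axes, which differ between genes and start at 0) of the 10 ERF genes in each library of Col-0, al24567 and ring1a1b; points are libraries, and bars are the mean ± SD of 3. ESE3 lies at 28.2 to 48.6 in al24567 against 741 to 982 in Col-0, and the ring1a1b points of ERF5, ERF6, ERF11 and ERF104 lie above all Col-0 points.

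Among the activators, ORA59 and ERF2 had higher values in al24567 and none passed the test in ring1a1b. ORA59 had counts of 16.7, 15.9 and 28.8 in Col-0, 60.1, 109 and 51.7 in al24567, and 14.5, 31.7 and 13.3 in ring1a1b. Every al24567 library stood above every other library. The difference from Col-0 was 1.77 ± 0.38 on the log2 scale in al24567, and in ring1a1b it was -0.10 ± 0.38 (adjusted p = 0.901, 95% interval -0.89 to 0.69). Its low reads, from 13 to 103 per library, leave that interval wide.

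ERF2, an activator that responds to jasmonate, had counts of 274, 262 and 237 in Col-0, 463, 525 and 480 in al24567, and 287, 330 and 284 in ring1a1b. The 3 genotypes did not overlap. Its difference in al24567 was 0.92 ± 0.10; in ring1a1b it was 0.22 ± 0.10 and was not called (adjusted p = 0.173). ERF1, the direct target of EIN3, was scarcer still, with counts of 4.3, 13.6 and 15.7 in Col-0, 11.0, 42.1 and 27.7 in al24567, and 16.5, 12.4 and 8.2 in ring1a1b. Its libraries overlapped between genotypes, with differences of 1.18 ± 0.51 in al24567 and 0.25 ± 0.51 in ring1a1b (adjusted p = 0.805). ESE1 had 2 reads in 1 library of al24567 and 0 in the other 8, so it was not tested. A count of 0 allows up to 3 reads, which is 0.134 to 0.164 CPM in these libraries, and this limit covers counting error only.

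The rapid stress responders rose together in ring1a1b and overlapped with Col-0 in al24567. ERF104, a substrate of MPK6 in the response to bacterial flagellin, had counts of 260, 219 and 388 in Col-0, 354, 324 and 356 in al24567, and 660, 755 and 571 in ring1a1b. It rose by 1.23 ± 0.15 on the log2 scale in ring1a1b (adjusted p = 1.27e-05), and its difference in al24567 was 0.29 ± 0.15. ERF5, which acts with ERF6 in the response to chitin, had counts of 238, 249 and 301 in Col-0, 288, 203 and 264 in al24567, and 427, 486 and 435 in ring1a1b. Its rise in ring1a1b was 0.78 ± 0.13 (adjusted p = 0.000308), with a difference of -0.07 ± 0.13 in al24567. ERF6, which represses leaf growth under osmotic stress, had counts of 185, 176 and 228 in Col-0, 184, 156 and 195 in al24567, and 271, 407 and 265 in ring1a1b. It rose by 0.66 ± 0.16 in ring1a1b (adjusted p = 0.00720), while its difference in al24567 was -0.13 ± 0.16. Without ring1a1b replicate 2, the highest library, the ERF6 difference was 0.46 and the call was lost (adjusted p = 0.0532).

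The repressors moved in opposite directions in ring1a1b. ERF11, a repressor that also acts on ethylene synthesis genes, had counts of 83.0, 75.8 and 63.7 in Col-0, 97.2, 106 and 110 in al24567, and 163, 162 and 117 in ring1a1b. The 3 genotypes did not overlap. It rose by 0.97 ± 0.18 in ring1a1b (adjusted p = 0.000922), and in al24567 it stood 0.49 ± 0.18 higher. ERF4, the most abundant member, had counts of 1408, 1208 and 1395 in Col-0, 1569, 1308 and 1729 in al24567, and 1043, 1103 and 919 in ring1a1b. It fell by 0.39 ± 0.10 in ring1a1b (log2, adjusted p = 0.00841), and its al24567 libraries overlapped with Col-0 at a difference of 0.19 ± 0.10. On leaving out Col-0 replicate 1 or ring1a1b replicate 3, ERF4 missed the threshold (adjusted p = 0.0507 and 0.0557).

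Of the 9 members with enough reads, ring1a1b therefore had 4 called higher (ERF5, ERF6, ERF11 and ERF104), 2 called lower (ERF4 and ESE3) and 3 not called (ORA59, ERF1 and ERF2). Over all 23207 tested genes, 10% were called higher and 7.67% lower in ring1a1b. The median difference of these 9 members was 0.25, against -0.02 for all tested genes. In al24567, 3 members (ORA59, ERF2 and ERF11) had all libraries above Col-0, 1 (ESE3) had all below, and 5 overlapped. Among all tested genes, 23.2% had all al24567 libraries above Col-0 and 24.5% all below, 47.7% in either direction. In ring1a1b the libraries of 5 members lay above and of 2 below, against 17.4% and 18.3% of all genes, or 35.7% in either direction. The members' median in al24567 was 0.29, against -0.02 for all genes.

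**Figure D2:**
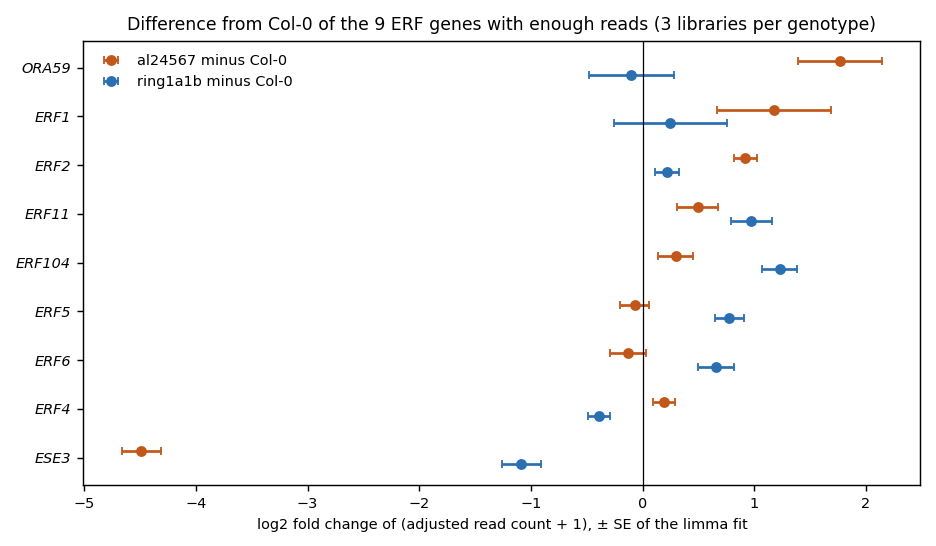
Log2 fold change of the adjusted read count + 1 (horizontal axis) of the 9 ERF genes with enough reads, for al24567 and ring1a1b against the same 3 Col-0 libraries; points are estimates and bars ± SE of the limma fit. ESE3 is at -4.49 in al24567 and -1.08 in ring1a1b, ORA59 is at 1.77 and -0.10, and ERF104 at 0.29 and 1.23.

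Per kilobase of exon, ESE3 took a different place among the members in each genotype. In Col-0, ERF4 led with a level of 1172 ± 98.3 adjusted reads per kb (SD, n = 3), followed by ESE3 with 844 ± 118. ERF104, ERF5 and ERF2 came next with 208, 202 and 196, levels whose libraries overlapped. Below them by mean stood ERF6 with 147, whose highest library, at 170, lay above the lowest of ERF104, at 157. ERF11 followed with 61.5, and then the overlapping ORA59 and ERF1 with 18.8 and 11.3. In al24567 the level of ESE3 was 37.2 ± 9.85 per kb, which put it in place 8, below ORA59 with 67.7 and overlapping with ERF1 at 27.3. In ring1a1b it was 399 ± 70.4 per kb in place 3, overlapping with ERF104 at 477 and ERF5 at 345.

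The PDF1 defensins, small antifungal proteins, were named in the rule with their rise in al24567, so their values there are also a description. PDF1.3 had adjusted counts of 5.23, 14.5 and 2.27 in Col-0 and 155, 375 and 456 in al24567. PDF1.4 had 17.8, 23.3 and 42.9 in Col-0 and 312, 460 and 393 in al24567. PDF1.2a had 5.19, 9.35 and 0 in Col-0 and 57.2, 217 and 170 in al24567. These genes, and PDF1.2c with means of 1.38 and 56.4, did not overlap between the genotypes. PDF1.2b, one of the genes with a GCC box, overlapped, with means of 3.02 in Col-0 and 3.51 in al24567. PDF1.1 had a mean of 6.45 in al24567, with 2 of 3 libraries above 0, and was listed at 0 in Col-0. PDF1.2b and PDF1.3 share an exact run of 72 bases, so reads may be split among defensin genes. PDF1.1, PDF1.2b and PDF1.2c reached a value of 1 in 3 libraries only with the al24567 libraries counted, so no result is drawn from their tests in ring1a1b. Of the other 3 genes, limma and edgeR called 0 in ring1a1b, and 0 had an unadjusted p below 0.05. PDF1.2a was called lower without Col-0 replicate 3 (adjusted p = 0.0372) and PDF1.3 without ring1a1b replicate 2 (0.0281). In ring1a1b the summed counts of all 6, 25.5 to 39.3, overlapped with the 31.4 to 56.5 of Col-0.

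Other outputs of the ethylene and jasmonate branch were not in the rule, but their list was chosen with earlier results of these data known. PR4, a hevein-like chitin-binding protein, had adjusted counts of 1799, 2010 and 2083 in Col-0, 5277, 6103 and 5824 in al24567, and 1994, 1823 and 1593 in ring1a1b. It rose by 1.55 on the log2 scale in al24567, with all al24567 libraries above the other 6. PR3, a basic chitinase, rose by 0.94 in al24567 and by 0.29 in ring1a1b, from a mean of 798 in Col-0 to 1536 and 979. Of the 3 genes of this list with enough reads, 2 were called higher in al24567 and 1 in ring1a1b. Of all tested genes, 17.9% were called higher in al24567 and 10% in ring1a1b.

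**Figure D3:**
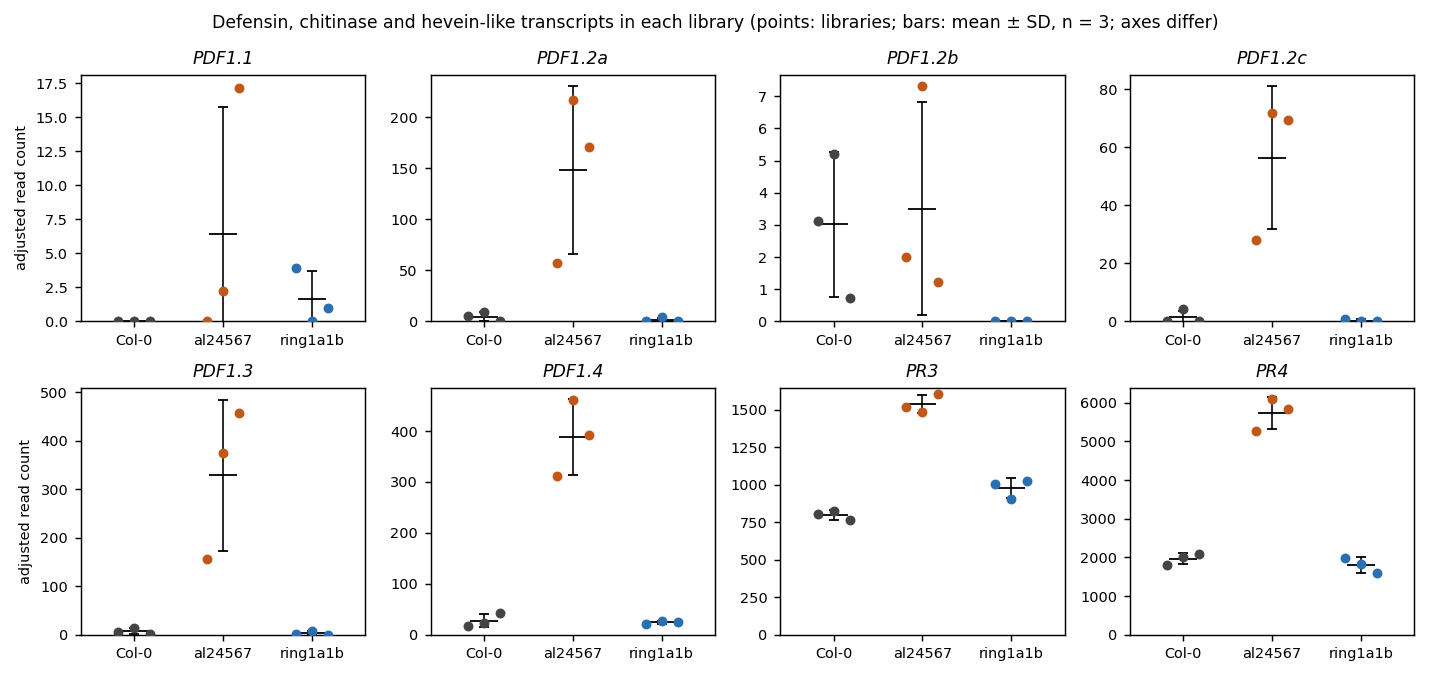
Adjusted read counts (vertical axes, which differ and start at 0) of 6 PDF1 defensin genes, PR3 and PR4 in each library; points are libraries, and bars are the mean ± SD of 3. PDF1.2a, PDF1.2c, PDF1.3, PDF1.4, PR3 and PR4 have all al24567 points above Col-0, while PDF1.1 and PDF1.2b overlap.

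Of the other B-3 genes, ERF1A, a relative of ERF2 that is distinct from ERF1, rose by 1.17 in al24567 (adjusted p = 1.44e-08) with means of 446 and 1004, and differed by -0.02 in ring1a1b. ERF1A is the next gene after ERF6 on chromosome 4, with 5041 bases between them, and the values of ERF6 itself in al24567 overlapped with Col-0. ERF15 rose by 0.95 in al24567, and ERF13 rose by 1.68 in ring1a1b, from counts of 24.4 to 46.6 in Col-0 to 80.6 to 136. DEWAX, a repressor of wax synthesis, lies 832 bases from ERF104 and moved the other way from it in ring1a1b, while the ERF104 libraries of al24567 overlapped with Col-0. It fell by 0.56 in al24567 and by 0.33 in ring1a1b on the log2 scale. In ring1a1b it missed the threshold with equal library totals (adjusted p = 0.0513) and on leaving out Col-0 replicate 3 (adjusted p = 0.0848). In this list of 6 tested genes, 2 were called higher and 1 lower in al24567, and 1 in each direction in ring1a1b. Among all tested genes, 17.9% were called higher and 18.4% lower in al24567, and 10% and 7.67% in ring1a1b. The members ESE1 and ERF1 flank TDR1, another B-3 gene, which was not called in either mutant at means of 4.17 to 6.18. ERF12, next to ERF11, was not called either.

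The lists of other group VIII (B-1) repressors and of relatives of ESE3 had 0 calls in al24567 and 1 each in ring1a1b. Among all genes, 36.3% were called in al24567 and 17.7% in ring1a1b, and no conclusion is drawn from such short lists. They hold only part of their subfamilies. Outside the members, 1 of 9 tested B-1 genes and 1 of 8 tested B-6 genes were called higher in al24567. Among 6 tested group VIII repressors, ERF9 rose by 1.18 in ring1a1b, and limma called 0 in al24567 (1 at an unadjusted p below 0.05, and edgeR 0), where ERF8 came closest at -0.26 (adjusted p = 0.0883). ERF8 was called with equal library totals (adjusted p = 0.0374), with the replicate block (0.0309), without Col-0 replicate 2 (0.0369) and without al24567 replicate 3 (0.0151). Among 4 tested SHINE and RAP2.11 genes, which share the subfamily of ESE3 and include regulators of wax and cutin, SHN2 fell 2.64-fold in ring1a1b, from counts of 43.3 to 55.0 in Col-0 to 15.2 to 19.4. In al24567 limma called 0 of these 4 (1 at an unadjusted p below 0.05, and edgeR 0), with SHN1 closest at -1.50 (adjusted p = 0.0634, and 0.00999 without al24567 replicate 3).

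Upstream of the ERF genes, most genes of the ethylene synthesis list differed in al24567. Of 13 tested, 6 were called higher and 4 lower in al24567, beside a background of 17.9% of all genes called higher and 18.4% lower, or 36.3% in either direction, and 5 higher and 1 lower in ring1a1b, beside 17.7%. In al24567, 5 genes were called higher with equal library totals, without any 1 of the Col-0 libraries and without al24567 replicate 1. ETO1 missed the threshold in these fits. Without Col-0 replicate 2 or ring1a1b replicate 3, 3 genes were called higher in ring1a1b in place of 5. ACS enzymes make the precursor ACC and ACO enzymes convert it to ethylene. The list also holds ETO1, which is neither and was among the genes called higher in al24567, so those 6 are not all synthesis enzymes. ACS7 rose by 2.78 in al24567, from a mean of 19.1 to a mean of 129, and differed by 0.12 in ring1a1b. ACS4 went in opposite directions, with counts of 30.8 to 65.5 in Col-0, 4.01 to 9.79 in al24567 and 107 to 129 in ring1a1b. Its differences were -2.65 in al24567 and 1.54 in ring1a1b, both called. ACS11 fell by 2.40 in al24567 and by 1.91 in ring1a1b on the log2 scale. ACS5, a known target of ERF11, rose by 1.44 in ring1a1b, where ERF11 itself was higher. ACO4 rose by 0.73 in al24567, and ACO5 by 1.01 in ring1a1b.

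Of 16 receptor and signalling genes, 5 were called higher and 4 lower in al24567, and 1 in each direction in ring1a1b. The shares of all genes were 17.9% higher and 18.4% lower in al24567, and 10% and 7.67% in ring1a1b. The lower calls in al24567 were 2 in place of 4 with edgeR, in the fit of the 2 genotypes alone, without any 1 of the Col-0 libraries, and without al24567 replicate 1 or 2. CTR1, the negative regulator, rose by 0.63 in al24567, and RAN1, a copper transporter that the receptors need, by 0.47. EIN2 rose by 0.38 while EIL1 fell by 0.32 in the same comparison. In ring1a1b the receptor gene ETR2 rose by 0.68. EIL1 fell there by 0.25, a call lost with equal library totals (adjusted p = 0.0506), without Col-0 replicate 1 (0.0578) and without ring1a1b replicate 1 (0.0511).

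Kinases and co-regulators that act on ERF proteins showed 2 of 9 called higher and 1 lower in al24567, and 1 in each direction in ring1a1b. Beside these stand 17.9% of all genes called higher and 18.4% lower in al24567, and 10% and 7.67% in ring1a1b. The lower calls of this list in al24567 were 0 without Col-0 replicate 3. They were 2 without al24567 replicate 2 or 3, with equal library totals, with a minimum of 20, with the replicate block and with edgeR. MED25 was the gene called lower in addition in these fits. MKK9, a kinase upstream of MPK3 and MPK6, had counts of 320 to 419 in Col-0, 927 to 1010 in al24567 and 567 to 635 in ring1a1b. It rose in both mutants, by 1.39 and 0.69. MKK4 rose by 0.85 in al24567. MPK3 fell by 0.37 in al24567 and by 0.43 in ring1a1b on the log2 scale, and in al24567 it missed the threshold on leaving out Col-0 replicate 3 (adjusted p = 0.0509).

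Genes downstream of ESE1 and ERF6 gave calls in both mutants. The 5 salt and drought genes, which ESE1 or other salt regulators activate, had 3 called higher in ring1a1b. The background was 10% of all genes called higher and 7.67% lower in ring1a1b, and 17.9% and 18.4% in al24567. RD29B rose by 4.34 in ring1a1b, from counts of 103 to 142 in Col-0 to 1979 to 3227. COR15A rose by 1.46 and RD29A by 0.85 in ring1a1b, and ESE1 itself had 0 reads in that mutant. In al24567 P5CS1, a proline synthesis enzyme, fell by 0.98 and COR15A by 1.17 on the log2 scale. RD29B was called higher there at 0.90 (adjusted p = 0.0289), but its counts of 109 to 439 overlapped with Col-0. That call was lost in the fit of the 2 genotypes alone (0.169) and without Col-0 replicate 1 (0.117), Col-0 replicate 3 (0.0574), al24567 replicate 1 (0.195) or al24567 replicate 3 (0.0873).

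Of 4 ERF6 targets, 2 were called higher in ring1a1b, where ERF6 was higher: STZ, a zinc finger repressor, rose by 0.98 and MYB51, a regulator of indole glucosinolates, by 0.64. In al24567, where the ERF6 libraries overlapped with Col-0, 2 of the 4 were called higher and 2 lower. WRKY33 fell by 0.60 on the log2 scale. The other calls were lost in some fits: STZ at 0.64 in the fit of the 2 genotypes alone (adjusted p = 0.0565), GA2OX6 at 0.46 without Col-0 replicate 2 (0.0592) or al24567 replicate 2 (0.0653), and MYB51 at -0.38 in that 2-genotype fit (0.105) and without Col-0 replicate 2 (0.143), Col-0 replicate 3 (0.0964), al24567 replicate 1 (0.0843) or al24567 replicate 2 (0.0507). Over the 9 pathway lists, 66 of 73 genes were tested; 20 were called higher and 14 lower in al24567, and 15 higher and 5 lower in ring1a1b. These are 30.3% and 21.2% of the tested genes in al24567, against 17.9% and 18.4% of all genes, and 22.7% and 7.58% in ring1a1b, against 10% and 7.67%. As the lists were chosen with earlier results of these data known, no conclusion is drawn from these shares.

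**Figure D4:**
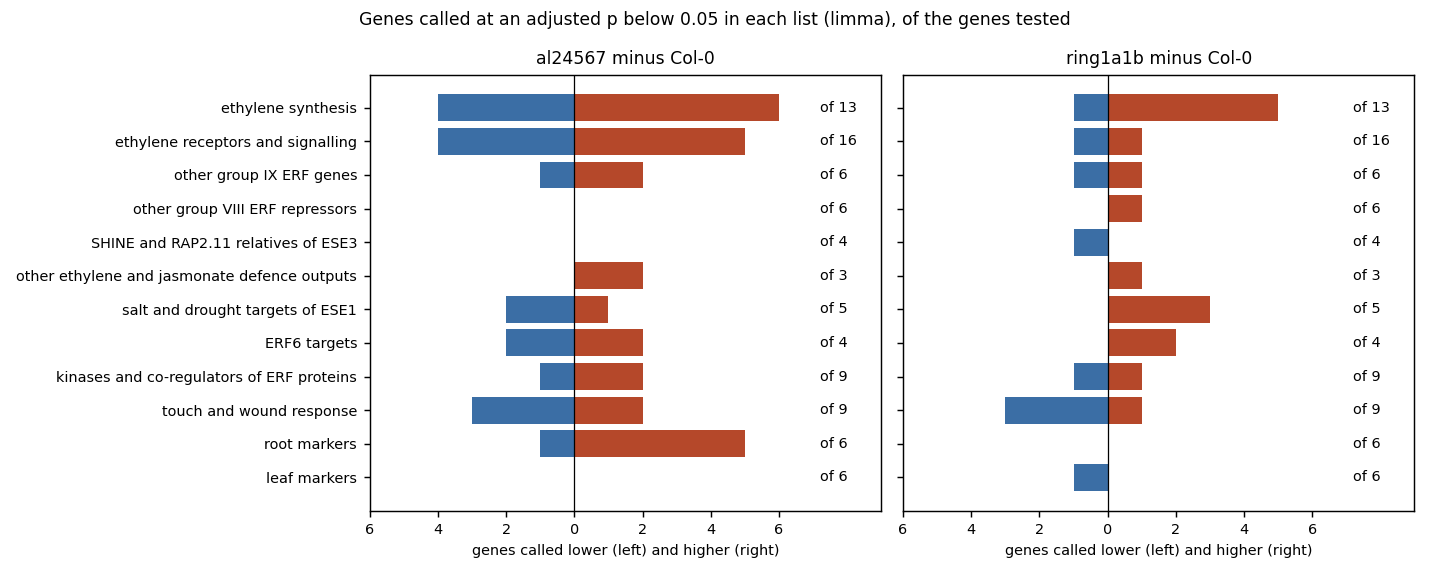
Number of genes called at a limma adjusted p below 0.05 (horizontal axis, lower to the left and higher to the right) in each list, for al24567 and ring1a1b against Col-0; the number tested stands beside each bar. Ethylene synthesis has 6 higher and 4 lower of 13 in al24567, and 5 higher and 1 lower in ring1a1b.

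Touch and organ markers were read beside these results, because several ERF genes respond within minutes to handling and because defence and ethylene genes differ between organs. The 10 touch and wound genes summed to adjusted counts of 4899 to 5739 in Col-0, 3734 to 4178 in al24567 and 3587 to 4963 in ring1a1b. Of 9 tested, 2 were called higher and 3 lower in al24567, and 1 higher and 3 lower in ring1a1b. Over all tested genes, 17.9% were called higher and 18.4% lower in al24567, and 10% and 7.67% in ring1a1b. In al24567 the call of CML37 was lost without Col-0 replicate 3 and in the fit of the 2 genotypes alone. WRKY53 was called lower there with edgeR, with the replicate block and without al24567 replicate 3. In ring1a1b WRKY40 was called higher with edgeR, with the replicate block and in the 2-genotype fit. TCH4, a cell wall enzyme induced by touch, fell by 1.45 in al24567 on the log2 scale, WRKY40 by 1.07 and CML38 by 0.95, while ZAT12 rose by 0.82. In ring1a1b CML37 rose by 2.68, and TCH2, TCH3 and WRKY53 fell by 0.52, 0.72 and 0.74.

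The 6 root markers summed to 2090 to 2291 in Col-0, 2995 to 3409 in al24567 and 2162 to 2643 in ring1a1b. In al24567, 5 of 6 were called higher, among them PRP3 by 1.09, COBL9 by 0.81 and SCR by 0.41, and GL2 fell by 0.56 on the log2 scale, against 17.9% of all genes called higher. Without al24567 replicate 1, 3 root markers were called higher in place of 5, as EXPA7 (adjusted p = 0.0567) and SHR missed the threshold. In ring1a1b limma called 0 of 6 (1 at an unadjusted p below 0.05, edgeR 0, and 1 without ring1a1b replicate 1). The 6 leaf markers had 0 calls in al24567 by limma or edgeR (0 at an unadjusted p below 0.05) and 1 in ring1a1b, where GAPA was lower by 0.34, a call lost in the unfiltered fit and without any 1 of the 6 libraries compared. The summed leaf counts were 822155 to 927828 in Col-0, 685185 to 886196 in al24567 and 757917 to 851329 in ring1a1b. Of the root and leaf markers, 0 were at 0 in all libraries of a genotype, and of the touch and wound genes 1 was, RRTF1. The part of touch or organ share in the ERF values was not tested.

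The genes whose pattern over the 9 libraries was most like ESE3 were AT2G40960, AT3G23480, CHR42 and AT5G56370. Likeness was the root mean square difference of log2(adjusted count + 1), each gene centred on its own mean, and these were 0.42, 0.48, 0.50 and 0.52. AT2G40960 had means of 225 in Col-0, 16.8 in al24567 and 111 in ring1a1b, so it shared with ESE3 the middle place of ring1a1b. CHR42, a chromatin remodelling protein, had means of 49.4, 2.82 and 48.5, and thus had ring1a1b level with Col-0. Most like ORA59 were PMZ, a stress-associated zinc finger protein, at 0.30, MES13 at 0.34, CYP94B2 at 0.34 and CHX17, a cation exchanger, at 0.35. PMZ had means of 10.9 in Col-0, 43.5 in al24567 and 10.4 in ring1a1b. These genes were found by likeness, so their pattern carries no test.

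**Figure D5:**
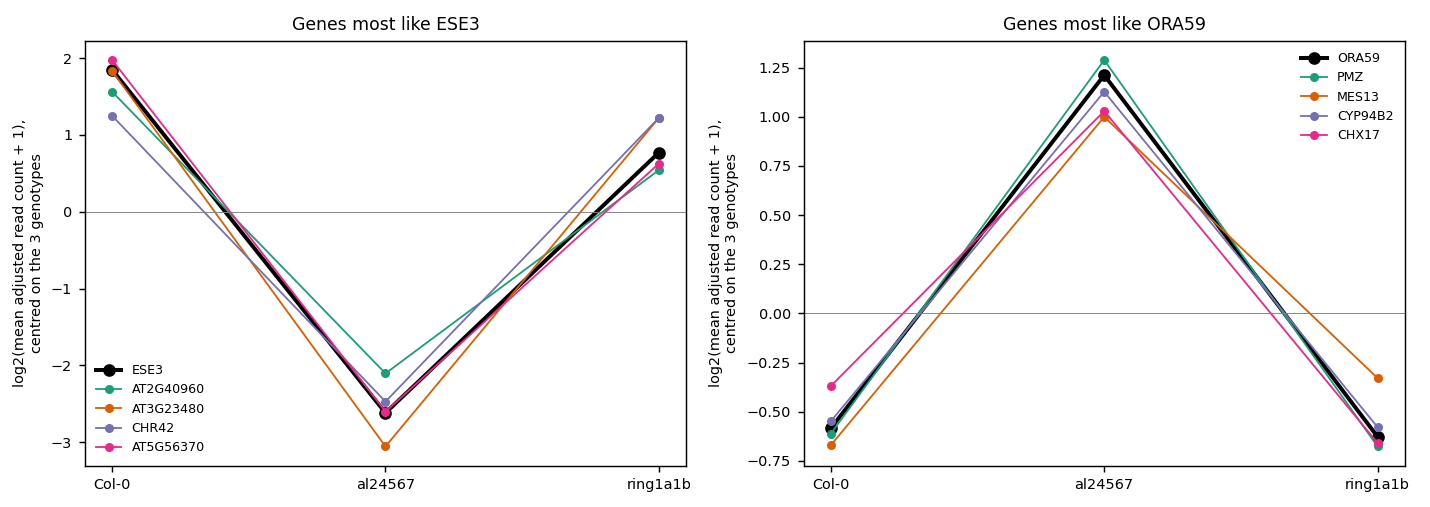
Log2 of the mean adjusted read count + 1 per genotype (vertical axis), centred on the 3 genotypes, for ESE3 with its 4 most similar genes (left) and ORA59 with its 4 (right); each point is the mean of 3 libraries. ESE3 has its low point in al24567 and ORA59 its high point there, and the genes around ESE3 differ among themselves in ring1a1b.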

How the data were processed

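RNA-seq libraries of 3 genotypes, 3 each, were analysed. Per the labels' protocols, total RNA was extracted with TRIzol and read as pairs of 150 bp on a NovaSeq instrument; the labels call the source genomic. Per the submitters' processing notes, bcl2fastq, HISAT2, edgeR and TAIR10 were used; versions, counting tool and strand setting are not given in the sources used here. The deposited values (signal) are read counts that the authors' edgeR adjusted to a common library size, which was read from the values: inverting the adjustment gave whole reads for 99.9997% of values (1 was not whole; tolerance 0.01 reads or a relative 1e-05), used for depth and floors.

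The design written earlier assumed raw counts or per-million values. As the values are neither, limma-trend (limma 3.58.1, R 4.3.3) was run on log2(value + 1), which understates the change of low genes. It covered the 23207 genes that reached a value of 1 in no fewer than 3 libraries, in 1 model of all 9 libraries with 6 residual degrees of freedom; calls are Benjamini-Hochberg adjusted p below 0.05 over all of them. The procedure was run on simulated counts scaled by library size, with far fewer genes changed than were called here. That run therefore gives no error rate for these data. Alternatives were equal library totals, a minimum of 20 in 3 libraries, leaving the filter out, adding 0.1 in place of 1, fitting just the 2 genotypes of a contrast, a replicate block, omitting each library in turn, and the edgeR 4.0.16 quasi-likelihood test on the recovered reads, added after seeing the data. The members and lists were chosen with earlier results of these data known. Named genes are all members and defensins, up to 4 called genes per list and contrast with the smallest p or the closest if none was called, the 4 genes most like ESE3 and ORA59, and ERF genes next to a member. The values of 1 gene that this rule names are not reported here. All 32548 identifiers matched TAIR10.1, whose sequences come from RefSeq.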

Additional observations from a re-analysis of the deposited data

How the results depend on the processing

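Of 426 values of 33 results under the alternatives, 416 stayed within the limits set: the same direction and side of the threshold where a difference was tested, a move below the SD between libraries where it was not, and within 1.5 times for a count. The untested al24567 difference of ERF5, -0.07, turned to 0.03 without Col-0 replicate 3 and to 0.08 without al24567 replicate 2. The ring1a1b differences of ORA59 and ERF1, neither called, also changed sign: ORA59 ranged from -0.48 to 0.16 with single libraries left out, with 0.16 without Col-0 replicate 3, 0.06 without ring1a1b replicate 1 and 0.12 without ring1a1b replicate 3, and ERF1 from -0.28, without Col-0 replicate 1, to 0.56. With single libraries left out, members called in ring1a1b numbered 3 to 4 higher and 1 to 2 lower, and pathway genes 13 to 15 higher and 4 to 5 lower; in al24567 pathway genes numbered 17 to 20 higher and 10 to 17 lower. With equal library totals, 3 pathway genes in place of 5 were called lower in ring1a1b; that scaling put the median of all genes at 0.04 there and -0.06 in al24567. The edgeR test on recovered reads called the same number of members, 4 higher and 2 lower. Deviations from the group means correlated between -0.02 and 0.04 for libraries with equal replicate numbers and between -0.03 and 0.02 for unequal numbers. All were near 0, although every equal-numbered pair with Col-0 was positive, so replicate numbers showed little pairing. With the replicate block, 4 members were called higher and 2 lower in ring1a1b, with ESE3 at -1.08 (adjusted p = 0.000325). Few reads limit ORA59, ERF1, ESE1 and the defensins.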

Other observations

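The 10 genes belong to a family of 116 genes that the annotation assigns to an ERF or DREB subfamily, a grouping chosen after the data were seen. Of 85 tested family genes outside the set, 20 were called higher and 11 lower in al24567, and 12 higher and 3 lower in ring1a1b (limma). These are 36.5% and 17.6% of them called in either direction, close to the 36.3% and 17.7% of all tested genes. By direction the shares were less close. In al24567, 23.5% were called higher and 12.9% lower, against 17.9% and 18.4% of all genes. In ring1a1b the shares were 14.1% and 3.53%, against 10% and 7.67%. The subfamilies and genes named next were picked after their values were seen. Subfamily B-4 had 3 of 6 tested genes called higher in al24567, with a median of 1.18, and 0 called in ring1a1b by limma or edgeR (1 at an unadjusted p below 0.05). Rap2.6L, a B-4 gene, rose by 1.46 in al24567, from a mean of 40.9 to 113 adjusted reads. ESE2, an A-4 gene that shares the ethylene and salt name with ESE1 and ESE3, rose there as well, from a mean of 13.4 to 34.1 (adjusted p = 0.00455). Subfamily A-1, which holds the cold response genes, had 3 of 4 tested genes called lower in al24567; CBF2 fell by 1.33 on the log2 scale. In ring1a1b its DREB1A rose by 1.48, from a mean of 24.6 to 68.8. AT1G75490, an A-2 gene, went in opposite directions, with -1.55 in al24567 and 1.19 in ring1a1b, both called.

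MYC2, the jasmonate regulator that acts with and against the ERF branch, and ERF105 are listed at 0 in all 9 libraries, so no value is given for either.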
